A study of Homo sapiens with 96 samples.

Results

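The early response to EGF was compared with untreated control in the human line MDA-MB-231, derived from a breast cancer and of mesenchymal, basal type, at 0.5 and 1 h after EGF was added. Of the 96 arrays of the series, 18 belonged to this comparison: every array of the control, EGF and DMSO-EGF arms at those times. Cells had been kept in low serum for 24 h in all arms. The EGF arm then received 10 ng/ml EGF. The DMSO-EGF arm received 30 min of DMSO, the vehicle of the MEK inhibitor U0126, and then the same dose of EGF. Control arrays carried neither agent in their labels. The arrays came from 3 series, 2D03 and 2D04 in 2D culture and 3D04 in 3D culture, and each series held 1 array per arm and time. This gave 6 blocks of 1 series and 1 time, each with 1 control, 1 EGF and 1 DMSO-EGF array, and so 12 arrays with EGF against 6 without. The labels do not say whether the series were separate cultures, so p-values measure the spread between these arrays, which may be technical.

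EGF binds the receptor EGFR, a tyrosine kinase that signals through RAS, RAF, MEK and ERK. ERK phosphorylates transcription factors already present in the cell, and these switch on the immediate early genes within minutes and without new protein synthesis. FOS and EGR1 are the classic examples, and RHOB, which encodes a small GTPase of endosomes and the actin cytoskeleton, is known as an immediate early gene of growth factors. Their products and the feedback inhibitors of the DUSP and SPRY families then shape the later response. MDA-MB-231 is known for ERK signalling that is active without added growth factor.

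The deposited values were presumed log2 signals centred on an unknown reference, so a value is not a level, and the marker genes of breast, immune or stromal cells could not be used to check the cell type. Differences between arrays do not depend on the reference. They were tested with limma over 11940 genes, each read from 1 probe set, with the 6 blocks as terms and p-values adjusted by Benjamini-Hochberg over all genes. A gene was called at an adjusted p under 0.05. Over the 18 arrays the array medians lay between -0.04 and 0, and actin signal near the 5-prime end minus that near the 3-prime end, which follows RNA integrity, lay between -0.11 and 0.13. On centred values the actin measure compares arrays with each other and does not show how intact the RNA was. The ranges of the 3 arms overlapped in both measures. In cell extracts of this kind a change in RNA per cell and a change in the share of responding cells cannot be told apart.

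The 250 bases upstream of the RefSeq start of 3 genes are shown because they are the genes by which the comparison is marked. Capitals mark matches to the CArG box, the element bound by SRF, and to the CCAAT box (CCAAT or, on the other strand, ATTGG). The windows were also searched on both strands for the CRE (TGACGTCA), the AP-1 site (TGACTCA or TGAGTCA) and the EGR site (GCGTGGGCG), none of which was found in them.
RHOB, chr2:20446824-20447073, + strand, GRCh38.p14: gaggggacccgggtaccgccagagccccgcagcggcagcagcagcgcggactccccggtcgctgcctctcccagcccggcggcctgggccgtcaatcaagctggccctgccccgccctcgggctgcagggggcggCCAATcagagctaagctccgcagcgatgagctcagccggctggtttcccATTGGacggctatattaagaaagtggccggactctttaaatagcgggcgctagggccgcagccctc
EGR1, chr5:138465229-138465478, + strand, GRCh38.p14: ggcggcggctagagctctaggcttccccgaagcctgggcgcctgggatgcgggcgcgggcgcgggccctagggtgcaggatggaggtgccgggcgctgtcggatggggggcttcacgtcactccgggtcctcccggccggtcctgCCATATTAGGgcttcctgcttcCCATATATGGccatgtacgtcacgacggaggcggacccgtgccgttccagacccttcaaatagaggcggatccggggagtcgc
FOS, chr14:75278578-75278827, + strand, GRCh38.p14: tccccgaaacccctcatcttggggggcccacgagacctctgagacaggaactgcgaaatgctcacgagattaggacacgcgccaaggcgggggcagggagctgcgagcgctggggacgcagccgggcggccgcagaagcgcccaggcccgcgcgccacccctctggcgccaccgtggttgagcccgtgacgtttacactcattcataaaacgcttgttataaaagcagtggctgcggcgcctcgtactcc
The RHOB window held 2 CCAAT boxes, 115 to 111 and 66 to 62 bases before the start. The EGR1 window held 2 CArG boxes, 105 to 96 and 83 to 74 bases before the start. The FOS window held no match to any of the 5 motifs. The search covered only 250 bases and fixed motifs, so elements farther upstream and variant sites would be missed. Among 35116 RefSeq promoters of the same length, 1.16% held a CArG box and 32% a CCAAT box. A match is a sequence feature only, and the arrays do not measure what binds there.

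RHOB had the largest difference of all genes between the EGF arrays and control, and this difference came from series 2D03 and 2D04, in 2D culture. Of 11940 genes, 0 (0%) were called when both EGF arms were set against control over all 3 series, and RHOB was the 1 gene called in 2D culture (1 of 11940, 0.00838%). In 2D it rose 2-fold at 0.5 and 1 h together (log2 1.00, SE 0.11, 8 EGF and 4 control arrays, adjusted p = 0.00212 in limma). In 3D, where 0 genes (0%) were called, the RHOB difference was log2 -0.02, SE 0.16, with a 95% interval from -0.35 to 0.31. All 3D arrays belong to series 3D04, so an effect of culture and one of series cannot be told apart.

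**Figure D1:**
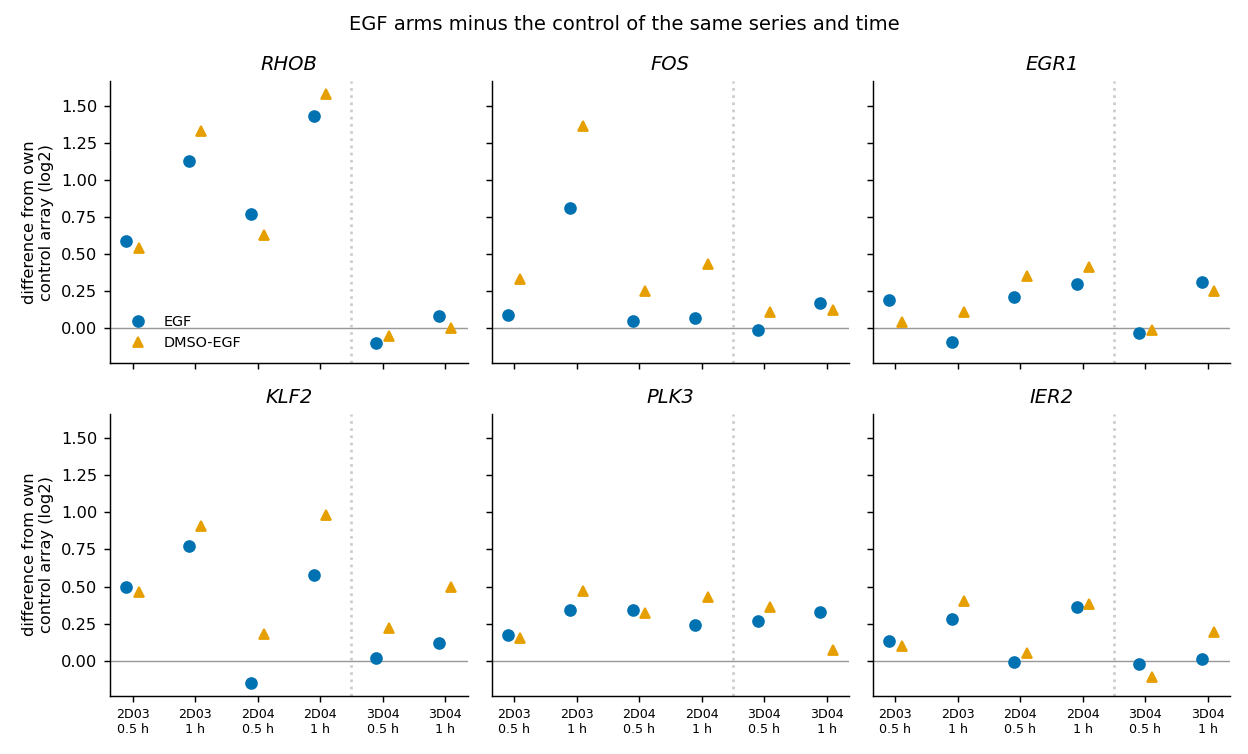
Each point is 1 EGF array (blue circle) or DMSO-EGF array (orange triangle) minus the control array of the same series and time, in log2 units, for 6 genes. RHOB stands between 0.54 and 1.58 in the 2D blocks and between -0.10 and 0.08 in the 3D blocks, FOS stands highest in series 2D03 at 1 h, and PLK3 is above 0 in every block.

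The RHOB differences stood apart between the 2D series and the 3D series, and by time within 2D. In series 2D03, the control, EGF and DMSO-EGF arrays stood at -0.50, 0.09 and 0.04 at 0.5 h and at -0.32, 0.81 and 1.01 at 1 h. In series 2D04 the same arms stood at -1.61, -0.84 and -0.98 at 0.5 h and at -1.14, 0.29 and 0.44 at 1 h. In series 3D04 they stood at -0.60, -0.70 and -0.65 at 0.5 h and at -0.70, -0.62 and -0.70 at 1 h. Every 2D array with EGF was thus above its own control, by 0.54 to 0.77 at 0.5 h and by 1.13 to 1.58 at 1 h, while the 3D arrays lay on both sides of theirs. Control arrays of series 2D04 were the lowest of the 6 controls, so the groups overlap when series are ignored and separate within each 2D block.

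Time and culture were also tested as differences of differences for RHOB. At 0.5 h the difference over all series was log2 0.40 (SE 0.19, adjusted p = 0.997), and at 1 h it was 0.93 (SE 0.19, adjusted p = 0.564). Without the 3D series these were 0.63 (adjusted p = 0.268) and 1.37 (adjusted p = 0.000147). The step from 0.5 to 1 h, 0.53 (SE 0.27), had an adjusted p of 0.902. The 3D effect minus the 2D effect was -1.02 (SE 0.19, 95% interval -1.42 to -0.61, unadjusted p = 8.35e-05, adjusted p = 0.498), so the difference between cultures did not pass over all genes. No gene passed in those contrasts at 0.5 h (0 of 11940, 0%), at 1 h (0%), for the step from 0.5 to 1 h (0%) or for 3D minus 2D (0%), where 603, 715, 645 and 627 genes had an unadjusted p under 0.05. The 2D call for RHOB depended on holding the blocks and on both 2D series: its adjusted p was 1 without the replicate block, 0.155 with additive terms for series and time, 0.0659 without 2D03 and 0.0887 without 2D04. Its size stayed between 0.83 and 1.15 when single arrays or series were left out.

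The vehicle made no detectable difference to RHOB. Against control it stood at log2 0.65 (SE 0.18) in the EGF arm and 0.67 (SE 0.18) in the DMSO-EGF arm, which share the control arrays. The direct difference of DMSO-EGF from EGF was 0.02 with a 95% interval from -0.35 to 0.40. Across all genes 0 of 11940 (0%) were called between these arms, and 573 had an unadjusted p under 0.05. Of 24 measured immediate early transcription factors, 2 were higher and 1 lower in DMSO-EGF at that p, where 4.8% of all genes reached it. KLF2 stood at 0.31 in the EGF arm and 0.54 in the DMSO-EGF arm, and FOS at 0.20 and 0.43. For both, DMSO-EGF was higher in 5 of 6 blocks and lower in 1. No array at these times had DMSO without EGF, so DMSO alone was not tested. Each arm alone against control also gave 0 called genes (0% for EGF and 0% for DMSO-EGF), where 673 and 631 reached 0.05 before adjustment.

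**Figure D2:**
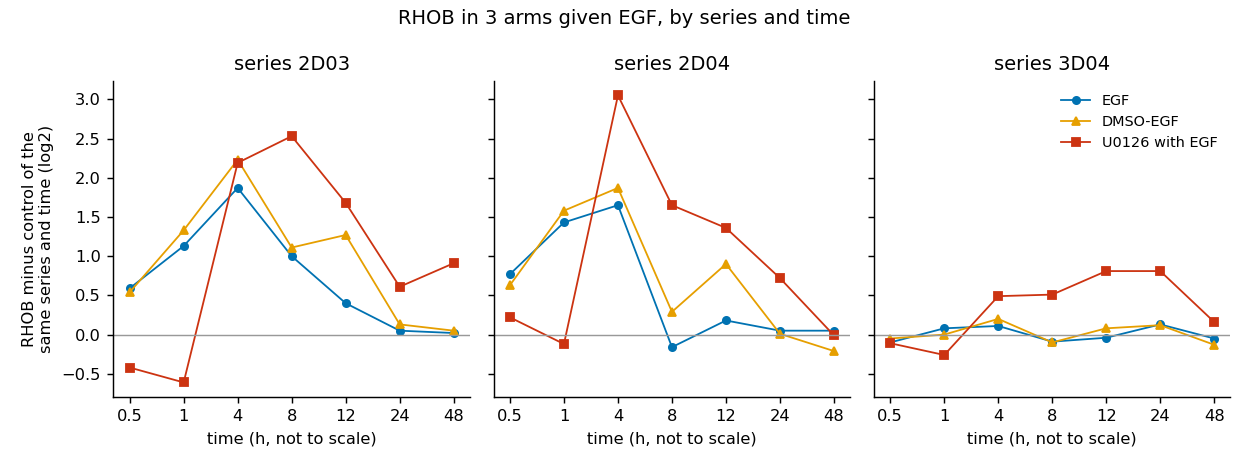
RHOB in the EGF, DMSO-EGF and U0126 arms, all given EGF, minus the control of the same series and time (log2) at 7 times from 0.5 to 48 h, with 1 panel per series and 1 array per point. In both 2D series the EGF arms climb from 0.5 h to 4 h and return near 0 by 24 h, and the U0126 arm is high from 4 h. The 3D panel shows no such climb in the EGF arms. At 0.5 and 1 h the U0126 arrays of the 3 series lie between -0.61 and 0.22, with 5 of 6 below control.

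The full course places the early RHOB values on a rising limb in 2D. The EGF and DMSO-EGF arrays were 1.87 and 2.23 above control at 4 h in series 2D03 and 1.65 and 1.87 in series 2D04. By 24 h the same differences lay between 0.01 and 0.13 in 2D. In 3D they stayed between -0.13 and 0.20 at all 7 times. At 4 to 12 h, over 18 EGF and 9 control arrays that share no array with the early ones, RHOB rose by 0.71 (SE 0.17, adjusted p = 0.0215). RHOB under U0126 with EGF was 0.61 below control in series 2D03 at 1 h, but 2.19 above it at 4 h, and 3.05 above it in series 2D04 at 4 h.

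FOS, which encodes a subunit of the AP-1 transcription factor, was higher in 11 of 12 EGF arrays than in their own controls without passing the test. Both EGF arrays of a block share its control, so the 12 differences are not independent. The same holds for the other counts of arrays above or below their control. For FOS, the EGF and DMSO-EGF arrays differed from control by 0.09 and 0.33 at 0.5 h and by 0.81 and 1.36 at 1 h in series 2D03. In series 2D04 the FOS differences were 0.05 and 0.25, then 0.07 and 0.43, and in 3D04 they were -0.01 and 0.11, then 0.17 and 0.12. Only the 2D03 block at 1 h stands apart. There the mean FOS difference was 1.085, against 0.05 to 0.25 in the other 5 blocks. Over all arrays FOS stood at log2 0.32 (SE 0.11, 95% interval 0.08 to 0.55, adjusted p = 0.842), and without series 2D03 at 0.15. FOSB, its close relative, was also higher in the 2D03 block at 1 h (0.49) than in the others (-0.23 to 0), and its mean over all blocks was 0.00 (SE 0.07).

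EGR1, a zinc-finger transcription factor, gave different sizes on its 2 probe sets. On the probe set that was read, 201694_s_at, the EGF and DMSO-EGF arrays differed from control by 0.19 and 0.04 at 0.5 h and by -0.09 and 0.11 at 1 h in series 2D03. They differed by 0.21 and 0.35, then 0.30 and 0.41, in 2D04, and by -0.03 and -0.01, then 0.31 and 0.25, in 3D04. The mean was log2 0.17 (SE 0.05, 95% interval 0.06 to 0.28, adjusted p = 0.755), with 9 of 12 arrays above their control. On the other EGR1 probe set, 201693_s_at, all 12 arrays were above their control. There the 2D differences ran from 0.31 to 0.52 at 0.5 h and from 0.53 to 1.09 at 1 h, and the 3D differences from 0.05 to 0.26. Its mean in 2D was log2 0.68 (SE 0.10, adjusted p = 0.0847 over 19415 probe sets) and in 3D 0.16 (SE 0.15), and it also missed the threshold over all arrays (0.51, SE 0.10, adjusted p = 0.52). Among untreated controls the EGR1 difference of 0.5 and 1 h from 0 h was 0.25 (SE 0.06, adjusted p = 0.79), in a comparison that uses the same control arrays and in which 0 genes (0%) were called and 654 had an unadjusted p under 0.05.

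Among the other immediate early transcription factors KLF2 had the highest value, and none passed the test, over both times or for the step from 0.5 to 1 h. KLF2, a Krüppel-like factor, was above its own control in 11 of 12 arrays, with differences from -0.15 to 0.98. Its mean was log2 0.42 (SE 0.10, adjusted p = 0.634), 0.21 at 0.5 h and 0.64 at 1 h. IER2, a nuclear protein of the early response, stood at 0.02 at 0.5 h and 0.27 at 1 h (SE 0.06 for both, adjusted p = 0.997 and 0.564). JUNB, an AP-1 subunit, stood at 0.05 (SE 0.06) and MYC at -0.01 (SE 0.04). In both EGF arms 6 of the 24 measured genes of the immediate early transcription factor list were higher at an unadjusted p under 0.05 and 1 (MAFF) was lower, where 3.2% of all genes were higher and 2.59% lower. The list had 16 of 24 differences above 0, against 52.6% of all genes, and a median of 0.05, against 0.0033. In 2D alone 9 of the 24 were higher at an unadjusted p under 0.05 (4.22% of all genes), and in 3D 0 of 24 (1.43% of all genes). In 3D 2 of the 24 were lower at that p, 8 of 24 lay above 0 and the median was -0.0538. In 2D 0 were lower, 20 lay above 0 and the median was 0.0863. Over all genes the median was -0.0125 in 3D and 0.0113 in 2D, and 4.35% and 6.7% reached that p in either direction. The shares of all genes lower or above 0 were not counted by culture. The 3D values rest on fewer arrays, with a median SE of 0.0824 against 0.0582 in 2D.

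**Figure D3:**
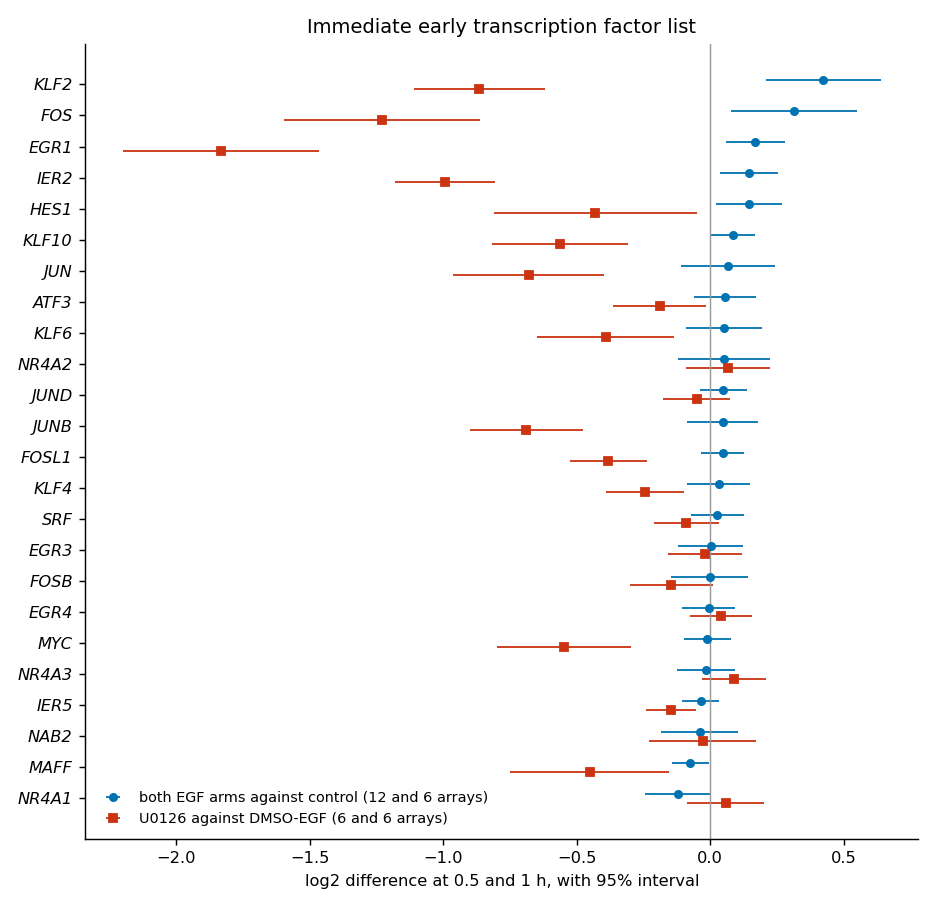
Log2 differences with 95% intervals for the 24 measured genes of the immediate early transcription factor list at 0.5 and 1 h: both EGF arms minus control (blue circles, 12 and 6 arrays) and U0126 minus DMSO-EGF (red squares, 6 and 6 arrays), ordered by the EGF difference. The EGF differences run from -0.12 for NR4A1 to 0.42 for KLF2, and the U0126 differences reach -1.83 for EGR1. The comparisons share the DMSO-EGF arrays.

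PLK3, a Polo-like kinase of the stress and early growth factor response, had the smallest p of all genes over the 3 series. All 12 EGF arrays were above their own control, by 0.17, 0.34, 0.34, 0.24, 0.27 and 0.33 in the EGF arm and by 0.15, 0.47, 0.32, 0.43, 0.36 and 0.07 in the DMSO-EGF arm, in the order 2D03, 2D04 and 3D04 with 0.5 h before 1 h. The mean was log2 0.29 (SE 0.05, 95% interval 0.19 to 0.39, adjusted p = 0.108), and the 2D and 3D means were 0.31 (SE 0.06) and 0.26 (SE 0.08). PLK3 passed without the 3D DMSO-EGF array at 1 h (0.31, adjusted p = 0.0155). A second PLK3 probe set, 215462_at, stood at -0.06 (SE 0.06). At 4 to 12 h PLK3 stood at 0.04 (SE 0.07). In all, 15 genes (0.126%) were above their own control in all 12 arrays and 14 (0.117%) below in all 12. The 12 differences of a gene rest on only 6 control arrays, and whether these counts exceed chance was not tested. KCNN4, a calcium-activated potassium channel, was among the 15 genes above (0.25, SE 0.04, adjusted p = 0.186), as was CCN2, a matricellular growth factor and SRF target (0.13, SE 0.03, adjusted p = 0.636).

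Several other genes with the smallest p had differences of similar size and also missed the threshold. HS3ST1, a heparan sulfate sulfotransferase, stood at log2 0.33 (SE 0.08, adjusted p = 0.628) and was above its control in all 12 arrays on the probe set read. Its other probe sets stood at -0.12 and 0.08, and the average over probe sets was 0.0961. MKNK1, which encodes an ERK-activated kinase of the translation factor eIF4E, stood at 0.17 (SE 0.04) over all series and at 0.25 in 2D (adjusted p = 0.109), on its 1 probe set. With the probe sets of other genes averaged, its 2D value was the same and its adjusted p was 0.035. WDHD1, a DNA replication protein, was below its control in all 12 arrays on the probe set read (-0.20, SE 0.04, adjusted p = 0.443). Its other probe sets stood at -0.0892 and 0.0183, and the average was -0.0908. EPOR, PFKFB1 and GUCY2D had negative differences of -0.24, -0.16 and -0.15, each with an adjusted p of 0.628. The other 5 EPOR probe sets lay between -0.0575 and 0.0533, and the average was -0.04. CD3E, a T-cell receptor subunit and one of the leukocyte markers, stood at -0.21 (SE 0.04, adjusted p = 0.227).

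**Figure D4:**
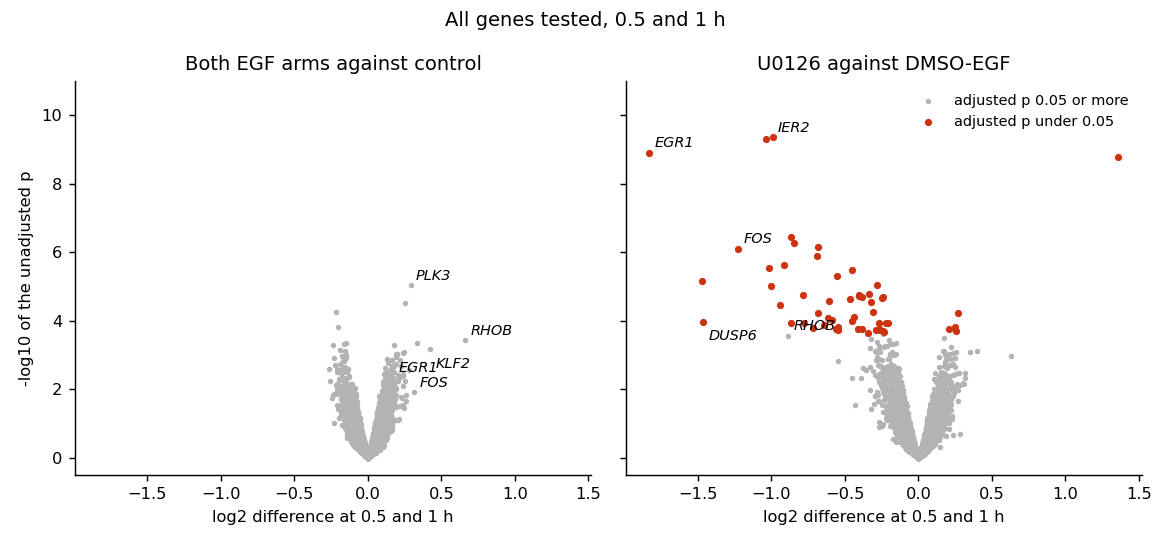
All 11940 genes at 0.5 and 1 h, by log2 difference and by -log10 of the unadjusted p, for both EGF arms minus control (left) and U0126 minus DMSO-EGF (right). Red points have an adjusted p under 0.05: 0 on the left and 56 on the right. RHOB is the point farthest to the right in the EGF panel.

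Averaged over the 3 series, the EGF differences were small and well bounded across the transcriptome. In both EGF arms 691 genes (5.79%) had an unadjusted p under 0.05, the smallest adjusted p was 0.108, and the median SE was 0.0479. With 1 probe set read per gene, RHOB was the 1 gene whose difference exceeded 0.5 in size; the EGR1 probe set that was not read stood at 0.51. The 95% interval lay within 1 log2 unit of 0 for all 11940 genes, and within 0.5 for 11936 of them. These intervals average over series, so RHOB in 2D lies outside them. In 3D alone, with 4 EGF and 2 control arrays, 3 genes exceeded 0.5 in size and 0 were called. The lowest was BAX at log2 -0.625, which stood at 0.0325 in series 2D03 and 0.0025 in 2D04. For 3D minus 2D, 17 genes exceeded 0.5 in size and 0 were called.

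No gene of the ERK pathway or its feedback loops passed the test. For the lists that follow, 3.2% of all genes were higher and 2.59% lower at an unadjusted p under 0.05, and 52.6% lay above 0. Of 17 measured ERK output and feedback genes, 1, SPRY4 (an inhibitor of receptor signalling), was higher at an unadjusted p under 0.05 (log2 0.10, SE 0.04, adjusted p = 0.842). DUSP6, the ERK phosphatase that follows ERK activity, stood at 0.09 (SE 0.06), and DUSP1 at 0.09 (SE 0.08). The DUSP1 probe set that was not read stood at 0.11 (SE 0.05, unadjusted p = 0.0244) over all series and at 0.19 in 2D (unadjusted p = 0.00118). DUSP6 was above its own control in 8 of 12 arrays, with differences from -0.17 to 0.35. Among 22 measured receptors, adaptors and kinases of the pathway, 0 were higher at that p and 1, the ETS factor ELK1, was lower (-0.17, SE 0.05, adjusted p = 0.755). The 3 ELK1 probe sets differed in sign, at -0.17, 0.10 and 0.15. EGFR stood at -0.02 (SE 0.05), and turned positive when its probe sets were averaged.

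The list of EGFR ligands, which cells release to sustain their own signalling, also held NRG1, a ligand of ERBB3 and ERBB4. Of the genes on this list, 6 of 6 measured had a difference above 0, where 52.6% of all genes did, and none passed. BTC was the highest (log2 0.19, SE 0.05, adjusted p = 0.687), followed by EGF (0.13, SE 0.06) and HBEGF (0.10, SE 0.04). The other HBEGF probe sets stood at 0.0175 and 0.0325, and the average was 0.0508. The other 3 lay between 0.02 and 0.04. Among 15 cytokines and NF-kB targets 2 were higher at that p, CXCL8 (0.10, SE 0.05) and LIF (0.12, SE 0.05). Among 12 invasion and protease genes they were MMP1, an interstitial collagenase (0.18, SE 0.06), and PLAU, the urokinase (0.10, SE 0.04). None of these passed after adjustment.

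Among 17 measured early response genes of survival and RNA decay, PLK3 and ZFP36 had an unadjusted p under 0.05 and were higher, where 3.2% of all genes were. ZFP36, which destabilizes short-lived mRNAs, stood at log2 0.17 (SE 0.07, adjusted p = 0.842). Of 15 genes that growth factors are known to lower, 2 were higher (FOXO3, 0.11, and TSC22D3, 0.10) and 2 lower at that p (KLF9, -0.18, and PIK3IP1, -0.12), where 3.2% of all genes were higher and 2.59% lower. With all arrays kept, the alternative settings gave -0.025 to 0.1192 for FOXO3, 0.0496 to 0.1033 for TSC22D3 and -0.1817 to -0.0561 for KLF9. Of 15 heat shock and handling stress genes, 0 reached an unadjusted p under 0.05, and HSPA1A stood at -0.01. Of markers of cell types, 1 of 10 mesenchymal genes (ZEB1, 0.17) was higher, 0 of 10 luminal genes moved at that p, 1 of 8 leukocyte genes (CD3E) was lower, and 1 of 10 fibroblast genes was higher and 2 lower. For ZEB1 those alternative settings gave 0.0578 to 0.1814. The part of other cell types in the results was not tested.

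The same early genes were set beside their response to MEK inhibition. Under U0126 (10 uM, 30 min before EGF) against DMSO-EGF at 0.5 and 1 h, with 6 arrays each, 56 of 11940 genes (0.469%) were called, 5 higher (0.0419%) and 51 lower (0.427%). EGR1 fell by 1.83 (SE 0.18, adjusted p = 4.88e-06), FOS by 1.23 (SE 0.18, adjusted p = 0.00119), IER2 by 0.99 (SE 0.09, adjusted p = 2.89e-06) and KLF2 by 0.86 (SE 0.12, adjusted p = 0.000845). The EGF arm alone, which shares no array with that comparison, stood above control by 0.15 for EGR1, 0.20 for FOS, 0.12 for IER2 and 0.31 for KLF2. For DUSP6 the values were -1.47 (SE 0.31, adjusted p = 0.0351) under U0126 and 0.13 in the EGF arm. RHOB stood at -0.89 (SE 0.20, adjusted p = 0.0561) under U0126 and passed without the 3D series (-1.25, adjusted p = 0.0184). FOS missed the threshold without series 2D04 (-1.27, adjusted p = 0.0761), and the number of called genes fell to 17, 20 and 16 without series 2D03, 2D04 and 3D04.

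U0126 arrays also lay below untreated control for these genes. EGR1 was below its control in 6 of 6 U0126 arrays, with differences from -2.45 to -0.81 and a mean of -1.64 ± 0.69 (SD, n = 6 arrays). This SD and those that follow mix time, series and culture, so they do not measure the spread of replicates. FOS was below in 6 of 6 (-0.80 ± 0.39), as were IER2 (-0.82 ± 0.24), DUSP6 (-1.42 ± 1.20, from -3.6 to -0.44) and CXCL8 (-1.39 ± 1.03, from -2.61 to -0.07). RHOB was below in 5 of 6 (-0.22 ± 0.29), and PLK3 was above in 4 of 6 (0.16 ± 0.20). Of the 24 immediate early transcription factors 9 fell under U0126 against DMSO-EGF, and of 17 early response genes of survival and RNA decay 9 fell, among them ZFP36 (-1.03, adjusted p = 2.89e-06) and IER3 (-1.01, adjusted p = 0.00306). Of 17 ERK output and feedback genes 6 fell, among them SPRY4 (-1.01, adjusted p = 0.00741). Of 15 cytokine genes 5 fell, among them CXCL8 (-1.48, adjusted p = 0.00589), and of the 22 receptors and kinases of the pathway 0 were called, where 0.469% of all genes were.

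Later after EGF more genes passed. At 4 to 12 h, with 18 EGF and 9 control arrays, 201 genes (1.68%) were called, 129 higher (1.08%) and 72 lower (0.603%), and the count fell to 6 without series 2D03 and to 1 without series 2D04. In that window 7 of the 24 immediate early transcription factors rose, among them EGR1 (log2 0.44, SE 0.07, adjusted p = 0.00102), IER2 (0.29, SE 0.05, adjusted p = 0.000599) and FOSL1 (0.17, SE 0.03, adjusted p = 0.00604). HBEGF rose by 0.23 (SE 0.04, adjusted p = 0.000599), and 4 of 15 cytokine genes rose, led by the chemokine CXCL8 (0.54, SE 0.05, adjusted p = 4.53e-08). The windows differ in array number, so the counts are not a measure of the difference. The difference between windows was tested itself: it passed for 3 genes (0.0251%), CXCL8, PVR and DLGAP4, and for 0 of the 24 immediate early transcription factors. For EGR1 it was 0.27 (SE 0.12, adjusted p = 0.667) and for RHOB 0.05 (SE 0.26, adjusted p = 0.984).

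**Figure D5:**
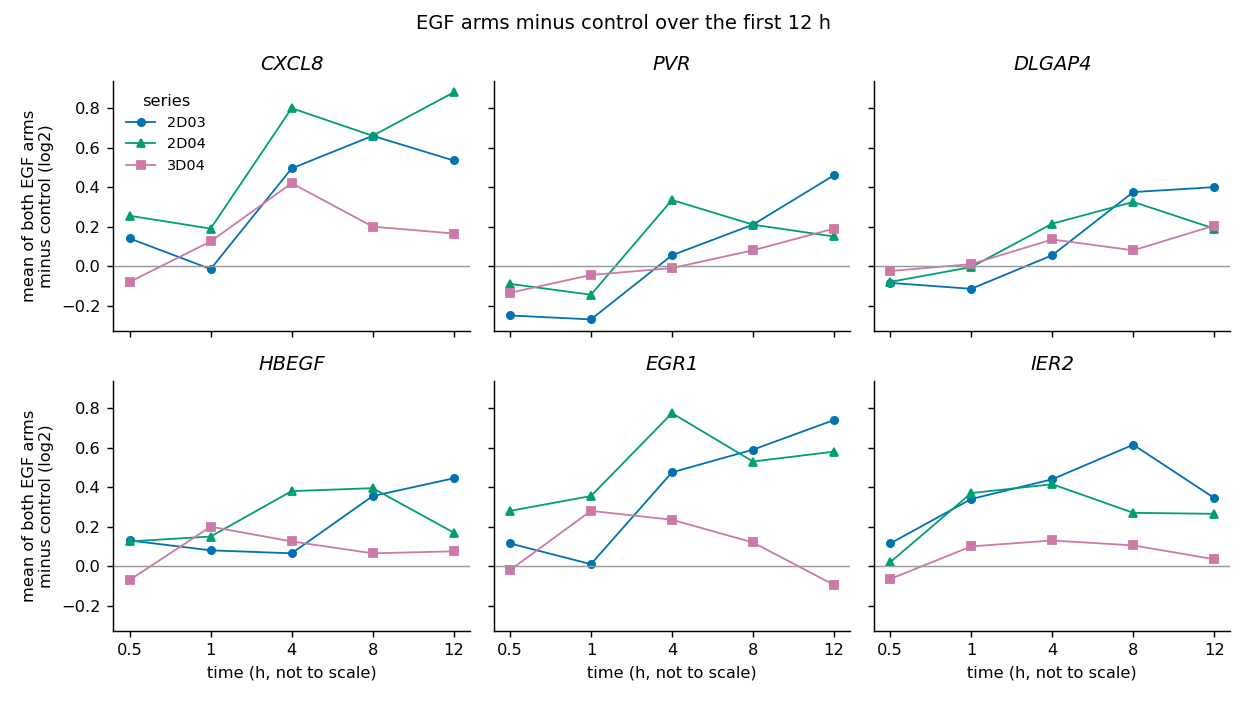
Mean of both EGF arms minus control (log2) at 0.5, 1, 4, 8 and 12 h for 6 genes, with 1 line per series. CXCL8, PVR and DLGAP4 lie lower at 0.5 and 1 h than at 12 h in every series, and the 3D line of EGR1 and IER2 stays below the 2D lines from 4 h.

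CXCL8, the neutrophil chemokine interleukin 8, stood at 0.10 (SE 0.05) at 0.5 and 1 h and 0.43 (SE 0.08, adjusted p = 0.0248) higher at 4 to 12 h. Its block means were between -0.08 and 0.255 early and between 0.165 and 0.88 later, so the ranges overlap, through the later 3D blocks at 8 and 12 h and the early 2D04 blocks at 0.5 and 1 h. PVR, the poliovirus receptor and an adhesion protein, stood at -0.16 (SE 0.05) early and 0.19 (SE 0.04) later, a difference of 0.34 (SE 0.06, adjusted p = 0.0248). Its 6 early block means were all below 0, from -0.27 to -0.045, and 8 of its 9 later ones above. The other 4 PVR probe sets lay between -0.1058 and 0.0342 early. DLGAP4, a scaffold protein, stood at -0.05 (SE 0.04) early and 0.22 (SE 0.03) later, with a difference of 0.27 (SE 0.05, adjusted p = 0.0248). Its other probe sets stood at 0.0858 and 0.0992 early, opposite in sign. All 3 calls were lost with array weights, with additive terms, without the block and with averaged probe sets, and that of CXCL8 also with quantile normalization (adjusted p = 0.0934). With averaged probe sets the difference between windows was 0.43 for CXCL8 (adjusted p = 0.0525), 0.2191 for PVR (adjusted p = 0.124) and 0.1052 for DLGAP4 (adjusted p = 0.702).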

How the data were processed

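Total RNA was hybridised to Affymetrix GeneChip HT arrays, and the values were made by RMA, per the submitters' processing notes. The deposited values, presumed log2, are centred on a reference not given in the sources used here. Of 22930 probe sets, 524 were array controls, 19415 had 1 gene symbol, 125 several and 2866 none in the platform table. Where a gene had several probe sets (4507 of 11940 genes), the one with the largest SD over all 96 arrays was read. Linear models from limma (version 3.58.1, under R 4.3.3) gave moderated tests by eBayes, with each series and time as a block, and p-values adjusted by Benjamini-Hochberg. The time labelled 05h was read as 0.5 h. The script was tested on simulated data. Arrays were paired by series and time. For 15 pairs of 2D groups, the differences of the 2D03 array from the 2D04 array correlated at 0.68 to 0.75. This bears on the series in 2D only, and pairing by time and in 3D was not tested. Named genes were RHOB, FOS and EGR1, the 10 genes with the smallest p in both EGF arms against control, the 3 with the smallest p in each other comparison and in each list that marks no other cell type, and FOSB, JUNB, IER2, ZFP36, DUSP1, DUSP6, SPRY4, MYC, HBEGF and EGFR. Other genes in the text, and the probe sets that were not read (EGR1, PLK3, ELK1, DUSP1, HBEGF, HS3ST1, WDHD1, EPOR, PVR and DLGAP4), were chosen after their values were seen. The values of several genes named by the rule above, such as SIK2, KCTD7 and OSMR, are not given in the text. Members and lists were chosen with earlier results of these data known. Alternatives were no block, additive terms, array weights, a variance trend, robust eBayes, other scalings, other probe set rules, a filter on genes of low SD, a fit of all arrays after 0 h, and leaving out each series or array. Leaving out single arrays for the 2D and 3D results was added after seeing the data. Some genes of the pathway were not analysed here, and the result of 1 gene list is not reported here.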

Additional observations from a re-analysis of the deposited data

Results flagged for a closer look

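In 3 of 47 genes examined, 1 of the 6 blocks stood far from the others in the mean of both EGF arms minus control, and in all 3 it was series 2D03 at 1 h. FOS stood at 1.085 there, FOSB at 0.49 and CXCL3 at 0.645, against -0.015 to 0.17 for CXCL3 elsewhere. Chance marks about 5 percent of groups. The EGF effect differed between 4 to 12 h and 0.5 and 1 h, by a test of the difference in limma, for PVR (0.3425), CXCL8 (0.4325) and DLGAP4 (0.27), each with an adjusted p of 0.0248.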

How the results depend on the processing

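Without the replicate block, 0 genes were called in 2D (RHOB 1.00, adjusted p = 1), 2 at 4 to 12 h, 0 for the difference between windows and 12 under U0126. With additive terms for series and time these counts were 0 (RHOB 1.00, adjusted p = 0.155), 40, 0 and 36. With array weights, 59 genes were called at 4 to 12 h and 0 between windows. With probe sets averaged, 2 were called in 2D (RHOB and MKNK1) and 0 between windows, and EGFR (0.0072) and ELK1 (0.0239) changed sign. FOXO3 changed sign (-0.025) with probe sets chosen on the other 78 arrays. Leaving out series or arrays gave 0 to 1 called genes for both EGF arms, 0 to 1 at 1 h, 0 to 2 in 2D (RHOB 0.83 to 1.15, and 1.1025 and 0.8975 without series 2D03 and 2D04), 1 to 284 at 4 to 12 h (6 without 2D03), 0 to 7 between windows and 16 to 20 under U0126 (17 without 2D03). It gave 0 for each EGF arm, DMSO-EGF against EGF, 0.5 h, 1 h minus 0.5 h, 3D, 3D minus 2D and the control arrays over time. Differences near 0 changed sign when series or arrays were left out: FOSB ranged from -0.1 to 0.0725, JUNB from -0.0075 to 0.1488 (-0.0012 without 2D03), EGFR from -0.08 to 0.0325 and MYC from -0.0338 to 0.0125, and EGR1 at 1 h minus 0.5 h turned to -0.015 without 3D04. Without 3D04, EGFR stood at -0.0662. Without single 3D arrays, FOSB stood at 0.007 (control, 0.5 h), 0.01 (DMSO-EGF, 0.5 h) and 0.0035 (EGF, 1 h) and EGFR at 0.002 (control, 0.5 h). Without single 2D arrays at 1 h, FOSB stood at 0.044 (control of 2D04), EGFR at 0.005 (control of 2D03) and MYC at 0.0096 (DMSO-EGF of 2D03), and MYC kept its sign at -0.0322 without the EGF array of 2D03. Of 98 gene results, 91 kept their sign under every alternative run. Additive terms were not run for the control arrays over time, where they could not be fitted. The 3D results rest on 1 series, and the number of arrays limits the precision.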
